A study of Mus musculus with 12 samples.

Results

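The stretch of mouse chromosome 5 examined here is the gene desert on the side of a Tbx3 enhancer that points away from Tbx3 and toward Med13l. Its members were the 10 kb windows of the deposited Tbx3 enhancer table whose start lay from 118587000 to 119572000 (mm10), which gave 879 of the 1750 windows of that table and of the 17305 windows of the whole series. Sums were taken over 118592001 to 119582000, and the last of them ends where the viewpoint window, 119582001 to 119592000, begins. The assay was 4C-seq: DpnII cuts crosslinked chromatin, neighbouring ends are ligated, Csp6I trims the products into small circles, and whatever was joined to 1 chosen site, the viewpoint, is amplified and sequenced. The 4 libraries were 2 of embryonic stem (ES) cells kept in 2i medium and 2 of mouse embryonic fibroblasts (MEFs) grown in DMEM. The labels give the line V6.5 for ES replicate 1 and no line for ES replicate 2. The MEFs were prepared from E13.5 embryos that carried 1 copy each of the Oct4-GFP reporter, the OKSM cassette of reprogramming factors and rtTA3, its doxycycline-dependent activator, and their labels name no doxycycline. The labels do not say whether replicates were independent cultures, and every p-value therefore rests on a spread between libraries that may be technical. Within each pair of values below, replicate 1 comes first.

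An enhancer is a stretch of DNA that can raise the transcription of a gene at a distance, and it is thought to do so by coming close to the gene's promoter inside the folded chromosome. Contact frequency generally falls with distance along the chromosome and drops further at the borders of topological domains, which hold most contacts of the sequences inside them. Genes of developmental regulators such as Tbx3, which encodes a T-box transcription factor, often lie beside gene deserts that hold many of their enhancers. The design text presents 4C-seq at this site as a follow-up of contact maps, so the question asked of the desert is whether the enhancer contacts it alike in ES cells and MEFs.

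The interval overlapped 12 genes of the RefSeq annotation (GRCm38.p6, the assembly that mm10 names). Of these, 11 are long noncoding RNA genes and 1, Med13l, which encodes a subunit of the Mediator kinase module, codes for protein. The assay can join a fragment to the viewpoint only at the DpnII letters GATC, and the second enzyme, Csp6I, cuts at GTAC. Promoter sequences from RefSeq were matched by position for 9 promoters of 8 of these genes, and 4 of the 9 hold GATC, against 48.0% of all 32851 promoters in the same table, while 1 holds GTAC (35.8% of all promoters). Both motifs read the same on both strands and do not overlap each other. A missing site says only that these letters are not in this 300-base window. The 3 promoters below, each read 5′ to 3′ in its gene's direction, stand for the places the results turn on: the most proximal noncoding gene with a promoter entry and 2 genes of the distal desert, beyond 400 kb, where ES cells and MEFs differed. GATC is in capitals.
Gm31314, chr5:119527908-119528207, minus strand: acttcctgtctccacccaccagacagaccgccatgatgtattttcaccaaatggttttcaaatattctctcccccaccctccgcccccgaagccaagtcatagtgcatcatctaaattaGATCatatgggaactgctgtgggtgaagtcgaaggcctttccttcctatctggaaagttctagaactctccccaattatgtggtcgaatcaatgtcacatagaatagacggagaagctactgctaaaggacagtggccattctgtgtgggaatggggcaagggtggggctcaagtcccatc
4930413E15Rik, chr5:118952089-118952388, plus strand: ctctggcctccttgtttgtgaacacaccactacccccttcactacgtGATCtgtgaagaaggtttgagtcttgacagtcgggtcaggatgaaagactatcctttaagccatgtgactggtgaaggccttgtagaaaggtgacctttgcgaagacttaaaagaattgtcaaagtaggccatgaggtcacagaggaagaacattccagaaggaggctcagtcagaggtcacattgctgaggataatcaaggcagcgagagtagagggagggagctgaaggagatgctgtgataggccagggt
Gm42015, chr5:118843261-118843560, minus strand, which holds neither site: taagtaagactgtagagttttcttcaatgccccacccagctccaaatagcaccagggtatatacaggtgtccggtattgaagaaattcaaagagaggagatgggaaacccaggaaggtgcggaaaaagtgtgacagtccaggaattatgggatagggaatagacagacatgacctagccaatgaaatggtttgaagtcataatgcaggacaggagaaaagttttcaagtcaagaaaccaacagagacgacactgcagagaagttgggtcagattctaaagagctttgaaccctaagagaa

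Values are counts per 1000 of a library's total, which was 6507 and 379 counts for the ES pair against 2871 and 5342 for the MEF pair. These totals were inferred from the steps of the values, and which reads they cover (the chromosome or more, with or without the viewpoint) is not known, so a share of the total is relative to that unknown set. In ES replicate 2, 1 count is therefore worth 2.64 per 1000, and 3 counts, the most that a count of 0 allows, are 7.92 per 1000. The table listed a window only where at least 3 of the 4 libraries had counts, so the deeper libraries decide most listings, and ES replicate 2 was at 0 in 444 of the 879 members. Windows that do not overlap were laid outward from the viewpoint, which gave 99 in the desert, of which 90 were listed. In their sums the desert held 29.3% and 30.3% of the library total for the ES pair against 35.3% and 37.8% for the MEF pair. Both MEF libraries lay above both ES libraries.

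Contacts of the enhancer summed beyond 400 kb were lower in ES cells than in MEFs. None of the 3 nearer distance classes passed the test. Not every bin within that sum was lower in ES cells, as given below. Summed from 400 kb to the end of the interval, the desert held 77.3 and 79.2 counts per 1000 for the ES pair against 134 and 131 for the MEF pair, from 503, 30, 384 and 702 counts. The groups did not overlap, and the mean was 1.69-fold higher in MEFs, 133 ± 1.65 against 78.2 ± 1.31 (SD, n = 2 each). The log2 difference, ES minus MEF on log2(value + 1), was -0.75 (SE 0.035, limma adjusted p = 0.000522 over 8 distance classes of both sides of the viewpoint, of which 25.0% were called, 12.5% as higher in MEFs). The SE does not carry the counting error of the 30 counts in ES replicate 2, and the count model of DESeq2 gave a 95% interval from -1.08 to -0.46 (adjusted p = 7.9e-06), and edgeR an adjusted p of 0.000135 (50.0% of the 8 classes called by edgeR). Without the windows over Med13l the difference was -1.03 (SE 0.16, limma adjusted p = 0.0167), and as a share of the desert's own counts it was -0.47 (SE 0.072, adjusted p = 0.0104). The windows over Med13l held 53 of the 503 counts of ES replicate 1 but 10 of the 30 of ES replicate 2. The close agreement of the ES pair, and with it the small SE, thus depends in part on those windows.

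Within 200 kb the values of the libraries lay close together. From 100 to 200 kb the desert held 38.0 and 39.6 counts per 1000 for the ES pair against 39.7 and 40.6 for the MEF pair, and the higher ES and the lower MEF value were nearly equal. The DESeq2 interval of the log2 difference there ran from -0.70 to 0.56, so a difference within it was not detectable at this depth. Under 100 kb the 4 values were 113 and 135 (ES) against 119 and 132 (MEF), with an interval from -0.41 to 0.22. From 200 to 400 kb they were 64.4 and 50.1 (ES) against 60.3 and 73.4 (MEF), with an interval from -0.63 to 0.34. The groups overlapped in both of these classes, and in these 3 classes the limma adjusted p was 0.826, 0.599 and 0.461, from the nearest to the farthest.

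**Figure D1:**
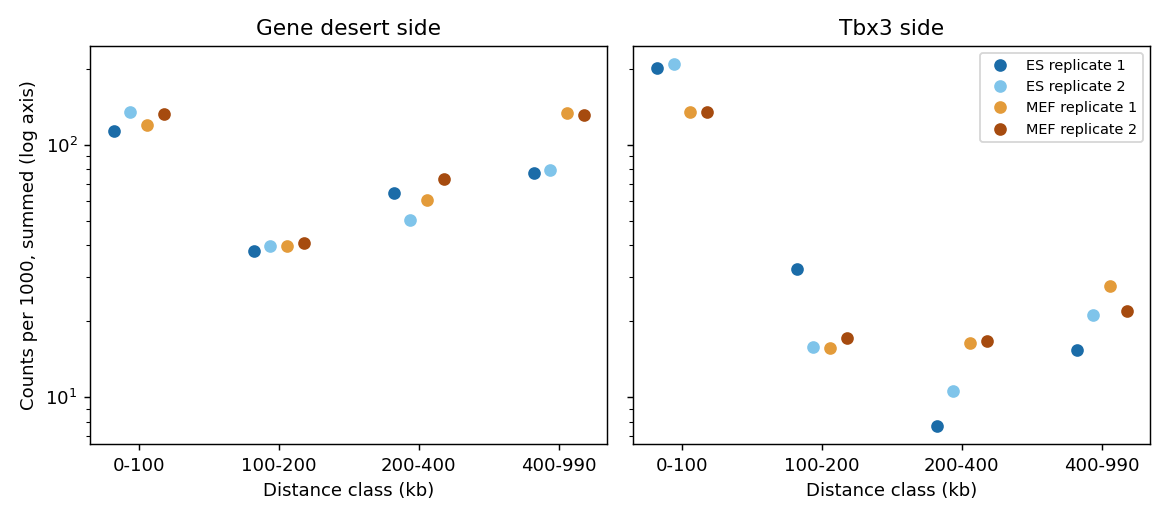
Counts per 1000 summed over listed 10 kb windows (log axis) in 4 distance classes on the desert side and on the Tbx3 side, 1 point per library. On the desert side the ES and MEF points are close within 200 kb and overlap from 200 to 400 kb (50.1 to 73.4), and beyond 400 kb the MEF points (134 and 131) lie above the ES points (77.3 and 79.2).

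The contacts of ES cells were accordingly concentrated nearer the viewpoint. In the desert, 26.4% of the counts of ES replicate 1 lay beyond 400 kb (95% exact binomial interval 24.4% to 28.4%) and 26.1% of those of ES replicate 2 (18.3% to 35.1%), against 37.9% in MEF replicate 1 (34.9% to 40.9%) and 34.8% in MEF replicate 2 (32.7% to 36.9%). These intervals cover counting error only, since reads amplified by PCR without molecular identifiers are not independent molecules. Within 100 kb the shares were 38.6% and 44.3% for the ES pair against 33.8% and 35.0% for the MEF pair, with both ES values above both MEF values. The distance that held the nearer 50% of the desert counts was 193 and 142 kb in ES replicates 1 and 2 and 282 and 244 kb in MEF replicates 1 and 2. The means of 167 ± 36.1 kb and 263 ± 26.5 kb (SD, n = 2 each) gave an exact permutation p of 0.333, which is the smallest that 2 against 2 libraries allow. Among windows with counts in all 4 libraries alone, a choice that keeps few distant windows because ES replicate 2 is shallow, this difference was no longer seen (108 and 104 kb on average). The shares of the groups overlapped there too. Beyond 400 kb they were 11.3% and 22.7% (ES) against 24.1% and 20.7% (MEF). Within 100 kb they were 54.5% and 46.4% (ES) against 48.4% and 51.7% (MEF).

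**Figure D2:**
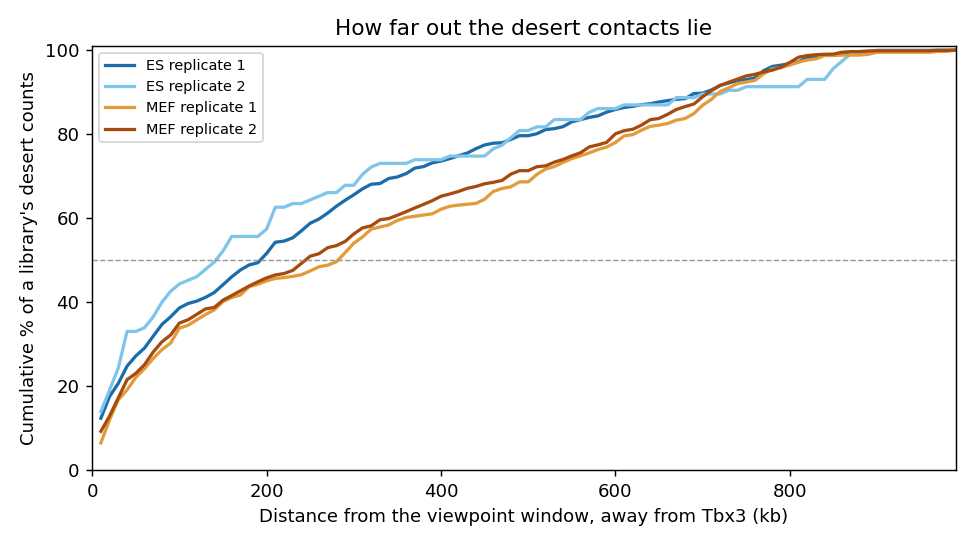
Cumulative percentage of each library's desert counts against the distance from the viewpoint window in kb. The ES curves reach 50% at 193 and 142 kb and the MEF curves at 282 and 244 kb, where the dashed line marks 50%.

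In 50 kb bins from 300 to 800 kb the MEF mean stayed between 9.80 and 19.1 counts per 1000, whereas the ES mean lay between 3.93 and 14.1 and was lowest from 600 to 650 kb. From 600 to 650 kb (118932001 to 118982000), ES replicates 1 and 2 held 5.23 and 2.64 counts per 1000 and MEF replicates 1 and 2 held 14.6 and 13.9. The next bin, 650 to 700 kb (118882001 to 118932000), held 6.15 and 7.92 (ES) against 16.7 and 19.5 (MEF). From 700 to 750 kb (118832001 to 118882000), the values were 9.37 and 5.28 (ES) against 19.5 and 18.7 (MEF). In these 3 bins both MEF libraries were above both ES libraries with no overlap. ES replicate 2 had only 1, 3 and 2 counts in them, so its place below the MEFs is uncertain. The bins were also picked for their large differences, which favours this order. The pooled counts were 2.78, 2.96 and 2.08 times higher in MEFs.

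Of the 20 bins of the desert, 18 could be tested, and limma called 0 of them, against 2.38% of the 42 bins tested on both sides. At an unadjusted p under 0.05 limma had 4 bins and edgeR 4, and DESeq2 called 0 after adjustment. In edgeR 1 bin was called, that from 650 to 700 kb, with a log2 difference of -1.52 (adjusted p = 0.0311; 7.14% of the 42 bins were called by edgeR, 4.76% as higher in ES cells and 2.38% as higher in MEFs). In limma its log2 difference was -1.25 (SE 0.56, adjusted p = 0.168). Both MEF libraries exceeded both ES libraries in 9 of the 18 bins, against 38.1% of all 42 bins, and in 6 of the 6 bins from 500 to 800 kb, which were singled out after their values were seen. Both ES libraries exceeded both MEF libraries in 1 desert bin, from 200 to 250 kb, against 21.4% of all bins. Without ES replicate 1, which leaves the shallow library alone, 11 desert bins were called, and without ES replicate 2 the count was 1. The median log2 difference was -0.44 over the 18 desert bins and -0.32 over all 42, whereas over the 6 bins from 500 to 800 kb it was -1.29 and over the 8 bins within 400 kb -0.23.

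**Figure D3:**
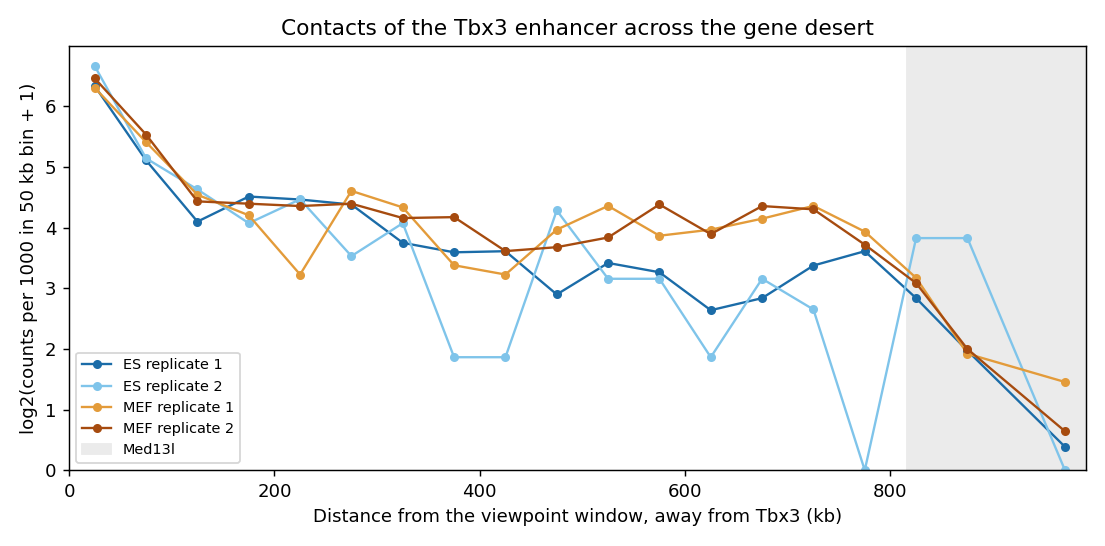
Contacts in each 50 kb bin as log2(counts per 1000 + 1) against the distance from the viewpoint window in kb, 1 line per library, with Med13l shaded. The lines run together near the viewpoint, both ES lines lie under both MEF lines from 500 to 800 kb, and ES replicate 2 had no counts in the bin from 750 to 800 kb. The bin from 900 to 950 kb, with no listed window, is left out.

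Pooling to 100 kb raised the depth behind each value, but ES replicate 2 still rested on few counts. It had 6 counts from 500 to 600 kb, 4 from 600 to 700 kb and 2 from 700 to 800 kb. The limma SE does not carry that counting error, and no count model was fitted at this bin size. From 600 to 700 kb ES replicates 1 and 2 held 11.4 and 10.6 counts per 1000 and MEF replicates 1 and 2 held 31.3 and 33.3, a 2.95-fold difference of the means. On the log2 scale ES cells were at -1.48 relative to MEFs (SE 0.15; adjusted p = 0.0114 in limma, with 11.5% of the 26 bins on both sides called, 7.69% as higher in MEFs and 3.85% as higher in ES cells). From 500 to 600 kb the values were 18.3 and 15.8 (ES) against 33.1 and 33.1 (MEF), and the log2 value for ES minus MEF was -0.92 (SE 0.14; adjusted p = 0.0344 in limma). From 700 to 800 kb the ES libraries stood apart, at 20.6 and 5.28 counts per 1000 against 33.8 and 30.9 in MEFs, and the difference did not pass the test (limma adjusted p = 0.267). The bin from 300 to 400 kb, with 23.5 and 18.5 (ES) against 28.6 and 33.9 (MEF), did not pass either (limma adjusted p = 0.232). Nor did that from 400 to 500 kb, with 17.7 and 21.1 (ES) against 23.0 and 23.0 (MEF) (limma adjusted p = 0.509). From 800 to 900 kb the groups overlapped, at 9.07 and 26.4 (ES, 10 counts in replicate 2) against 10.8 and 10.5 (MEF). The log2 difference there was 0.51, toward higher ES values (limma adjusted p = 0.567).

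**Figure D4:**
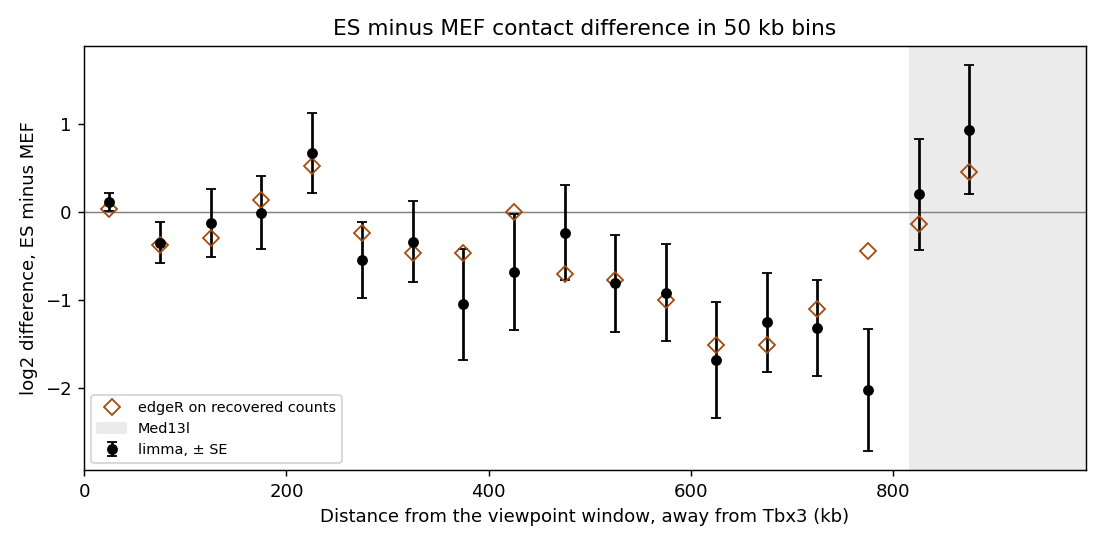
Log2 difference, ES minus MEF, in the 18 tested 50 kb bins against the distance from the viewpoint window in kb. Circles with bars are limma estimates ± SE, diamonds are edgeR estimates on recovered counts, and Med13l is shaded. The estimates lie around 0 near the viewpoint and reach -1.68 (limma) and -1.52 (edgeR) between 600 and 700 kb. At 750 to 800 kb the 2 tools differ (-2.02 and -0.45), where ES replicate 2 had 0 counts.

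Among single 10 kb windows, the lower ES values that edgeR called lay in 2 places after merging over gaps up to 20 kb, and 3 of the windows are described here. At 118882001 to 118892000 ES replicates 1 and 2 had 0.307 and 2.64 counts per 1000 and MEF replicates 1 and 2 had 6.97 and 6.55, from 2, 1, 20 and 35 counts. The window lies in the part of the desert between Gm42015 and 4930413E15Rik and overlaps neither gene. At 118949001 to 118959000, which overlaps 4930413E15Rik, ES replicate 1 had 0.307 and ES replicate 2 no counts, against 3.13 and 5.80 in MEF replicates 1 and 2. At 118977001 to 118987000 the values were 0.615 and 0 (ES) against 4.53 and 7.11 (MEF). In all 3 windows both MEF values were above both ES values, but ES replicate 2 had only 1, 0 and 0 counts there. A count of 0 allows up to 7.92 per 1000, which is above the MEF values at 118949001 to 118959000 and 118977001 to 118987000. A count of 1 allows more than a count of 0 does, and 7.92 is also above the MEF values at 118882001 to 118892000 (6.97 and 6.55). ES replicate 2 thus cannot be placed below the MEFs in any of the 3 windows. All 3 windows were picked from calls higher in MEFs, which favours this order, and its frequency among all tested windows was not counted. These windows were among 9 members that edgeR called, all higher in MEFs, against 3.01% of the 1228 windows tested that edgeR called in either direction, 0.733% as higher in MEFs and 2.28% as higher in ES cells (adjusted p = 0.0255, 0.0404 and 0.0442). Limma did not call them (adjusted p from 0.285 to 0.388).

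Against this direction, a short stretch about 200 kb from the viewpoint was higher in ES cells. Limma called 3 overlapping members there, of 803 tested in the desert. Over the whole table it called 21 of 1228 windows (1.71%), all higher in ES cells. The 3 members joined into 119370001 to 119382000, which overlaps no annotated gene. In the window 119372001 to 119382000 ES replicates 1 and 2 held 7.84 and 15.8 counts per 1000 and MEF replicates 1 and 2 held 2.09 and 2.62, a 5.02-fold difference of the means that was 3.33-fold without ES replicate 2 and 3.40-fold in pooled counts. Both ES values lay above both MEF values, but they rest on 51 and 6 counts (ES) against 6 and 14 (MEF). ES minus MEF was 1.87 on the log2 scale (SE 0.54; adjusted p = 0.033 in limma), and edgeR did not call it (adjusted p = 0.0834). The call also ended without ES replicate 2 (limma adjusted p = 0.407), MEF replicate 1 (0.607) or MEF replicate 2 (0.351). Without ES replicate 1, limma called 390 member windows, 353 with MEFs on the higher side and 37 with ES cells. Without ES replicate 2 it called 3, all higher in MEFs. The window ranked 8 by mean level among the 99 of the desert, but 24 by the mean of the other 3 libraries without ES replicate 2. Its neighbour on the far side, 119362001 to 119372000, was low in every library, with 0.768 and 0 counts per 1000 (ES) against 0.697 and 1.31 (MEF). The neighbour on the near side, 119382001 to 119392000, held 6.45 and 5.28 (ES) against 2.79 and 3.56 (MEF).

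**Figure D5:**
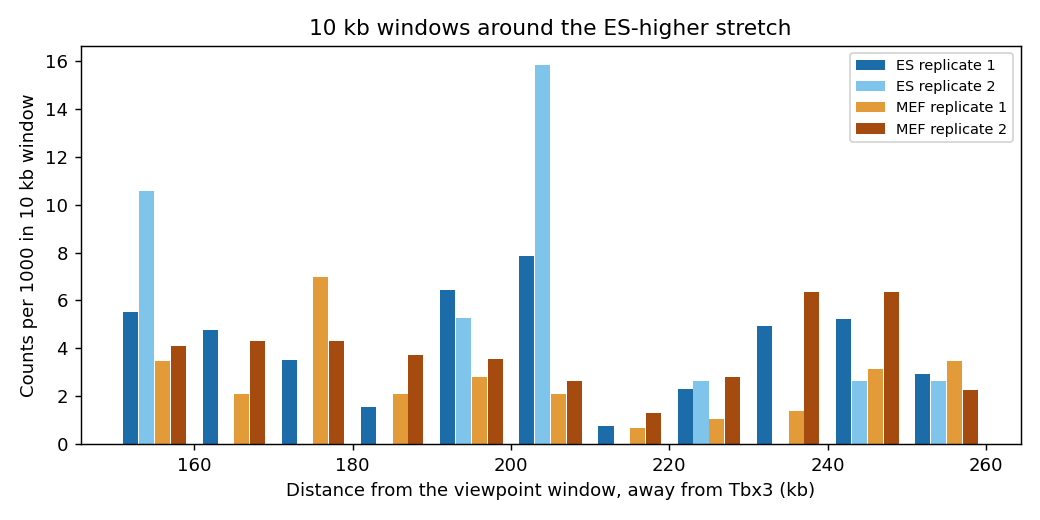
Counts per 1000 in 10 kb windows that do not overlap, from 150 to 260 kb from the viewpoint window, 1 bar per library. At 200 to 210 kb the ES bars (7.84 and 15.8) stand above the MEF bars (2.09 and 2.62), and the next window outward is low in all 4 libraries.

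Most gene loci of the desert had higher values in MEFs. Taken as the mean of all listed windows that overlap the gene, 8 of the 12 loci had both MEF libraries above both ES libraries, against 22.2% of the 63 gene loci in the table, and 1, AW549542, had both ES libraries above (17.5% of the 63). These loci share windows with the bins above and were not tested. Overlapping windows count the same reads again, and 1 count of ES replicate 2 is worth 2.64 per 1000. Its values under that level, such as 0 at 4930413E15Rik and 0.819 at Gm42015, rest on few or no reads. The order of the groups is not secured at such loci. AW549542 lies 1.64 kb from the viewpoint window and held 38.1 and 39.7 counts per 1000 per window for the ES pair against 30.5 and 29.4 for the MEF pair. Gm31314, 54.0 kb away, whose promoter is printed above, held 7.47 and 6.67 (ES) against 9.53 and 9.76 (MEF). 4930413E15Rik, 621 kb away at 118952339 to 118961261, was without counts in ES replicate 2, with 0.906 and 0 (ES) against 3.08 and 3.84 (MEF). Gm42015, 739 kb away at 118824374 to 118843310, held 1.39 and 0.819 (ES) against 3.04 and 2.10 (MEF). At Gm7538, 1700081H04Rik and Med13l the groups overlapped. Tbx3 itself, on the other side, held 18.3 and 17.0 counts per 1000 per window (ES) against 5.69 and 5.41 (MEF).

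Contacts were low over Med13l in 3 of the 4 libraries. Its locus, 118560330 to 118765438, begins beyond the interval and ends 817 kb from the viewpoint window, and 91 of its 215 possible windows were listed. Over the last 18 windows of the tiling, which reach into Med13l (118592001 to 118772000), ES replicates 1 and 2 summed to 8.15 and 26.4 counts per 1000 and MEF replicates 1 and 2 to 10.1 and 6.36. Over the 18 windows next to them on the desert side (118772001 to 118952000) the sums were 29.8 and 13.2 (ES) against 57.1 and 61.0 (MEF). Contacts thus stepped up outside the gene by 3.66-fold in ES replicate 1 (95% exact binomial interval 2.69 to 5.06), 5.66-fold in MEF replicate 1 (3.79 to 8.71) and 9.59-fold in MEF replicate 2 (6.72 to 14.1). ES replicate 2 went the other way, at 0.50-fold from 5 and 10 counts (0.13 to 1.61), and so did not show a step. Only 10 of the 18 windows over Med13l were listed against 18 of 18 beside it, and with the listed windows alone the folds were 2.03, 3.14 and 5.33 in the first 3 libraries named. A low window is listed more readily where ES replicate 2 happens to have counts, and it had counts in 5 of the 10 listed windows over Med13l and in 4 of the 18 beside it, so its level over Med13l cannot be told apart from that selection. The step was found by inspection and its difference between the groups was not tested.

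The lower ES contact at long range was not shown to be particular to the desert. On the Tbx3 side, from 400 kb out, ES replicates 1 and 2 held 15.4 and 21.1 counts per 1000 and MEF replicates 1 and 2 held 27.5 and 21.9. The value of ES replicate 2 rests on 8 counts. Only 25 of the 59 windows there were listed, against 50 of 59 in the desert. From 200 to 400 kb the Tbx3 side held 7.68 and 10.6 (ES, 4 counts in replicate 2) against 16.4 and 16.7 (MEF). That log2 difference of -0.81 (SE 0.24) did not pass the test (limma adjusted p = 0.096). Unlisted windows add nothing to the sums, so the side ratios and shares below carry this limit. The log2 ratio of the desert to the Tbx3 side beyond 400 kb differed by -0.33 between ES cells and MEFs (SE 0.36, limma adjusted p = 0.386 over the 4 classes, of which 0.0% were called), so a difference between the sides was not shown. Nearest the viewpoint the sides looked unlike, since within 100 kb the Tbx3 side held 201 and 208 (ES) against 135 and 134 (MEF) and the desert 113 and 135 against 119 and 132, but that difference of -0.63 did not pass either (SE 0.36, adjusted p = 0.279). It passed without ES replicate 2 (-0.72, adjusted p = 0.0234), as did those from 100 to 200 kb (-1.01, 0.013) and from 200 to 400 kb (0.97, 0.013), while that beyond 400 kb did not (-0.13, 0.529). With 1 ES library the spread comes from the MEF pair alone, and ES cells are assumed to vary alike. Over both sides within the same span, viewpoint window left out, the desert held 53.3% (95% exact binomial interval 51.7% to 55.0%) and 54.2% (47.3% to 61.1%) of the counts for the ES pair against 64.5% (62.0% to 66.8%) and 66.5% (64.8% to 68.2%) for the MEF pair. The groups did not overlap, and their means of 53.8% and 65.5% gave an exact permutation p of 0.333, the smallest that this design allows.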

How the data were processed

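The authors deposited CPM by name for 10 kb windows stepping by 1 kb. Per the submitters' processing notes, Bowtie 1.0.0, edgeR and mm10 were used, with no role given. All values (100%) were whole multiples of a library's smallest step (tolerance 0.01 count), so counts and library totals were recovered and the values are counts per 1000. The sources used here do not state how duplicates were handled or windows chosen.

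The highest window was taken as the viewpoint. Windows that do not overlap were summed, an unlisted window adding nothing. Counts of overlapping windows could not be resolved into sums of shared 1 kb steps, so reads at a window's edge may enter the sums of both neighbours. Bins needed 2 listed windows and a value of 1 in 2 libraries. Limma 3.58.1 (R 4.3.3, trend) was run on log2(value + 1), and p-values were adjusted by Benjamini-Hochberg over both sides, called at 0.05. Side ratios were fitted without trend. Alternatives on recovered counts used edgeR 4.0.16 (quasi-likelihood) and DESeq2 1.42.0. Scripts were tested on simulated data. Of 9 simulated 50 kb bins with a 2-fold change, limma called 0% and edgeR 11.1%. With a 4-fold change they called 55.6% and 88.9%. A 2-fold difference in a 50 kb bin can therefore go uncalled. Items named in the text were drawn mainly from the 10 bins of largest difference, the 10 highest windows, merged calls (gaps up to 20 kb) and genes of the interval. Not all of these are given. Members and lists were chosen with earlier results of these data known. Both replicate pairs differed beyond counting noise (chi-square test over 19 bins, p = 0.00734 for ES and 0.00159 for MEF).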

Additional observations from a re-analysis of the deposited data

How the results depend on the processing

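The lower ES contact beyond 400 kb kept its direction and its call in all 18 alternatives, with log2 differences from -1.03 to -0.47 and adjusted p-values up to 0.0168. Leaving out 1 library gave -0.77 to -0.74. Median-centring moved it to -0.62, a shift of all classes by 0.137. Among the alternatives, taking away the filter on low values left the class beyond 400 kb unchanged. The replicate block and the fit without trend cannot move a log2 difference, so they bear on the call only. The other 3 classes were not called in any alternative. Below 100 kb the difference of -0.027 reversed to 0.040 (rescaled without windows within 50 kb), 0.11 (median-centred), 0.27 (scaled to the desert's counts, an alternative chosen after seeing the data, as was leaving out Med13l), 0.097 (without ES replicate 1) and 0.046 (without MEF replicate 2), in a leave-one-out range of -0.15 to 0.097. From 100 to 200 kb, -0.05 reversed to 0.016, 0.087 and 0.24 under the same 3 scalings and to 0.047 with windows shifted by 5 kb, and from 200 to 400 kb, -0.22 reversed to 0.066 with the desert's counts as scale. The cause was not tested.

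The count of 50 kb bins called, 0, became 1 with edgeR, 1 with the ES libraries summed, 1 with the shift and 2 with 100 kb bins, all higher in MEFs. Leaving out 1 library gave 0 to 11, the 11 without ES replicate 1, where the lone ES library of 379 counts is assumed to vary like the MEFs. The 3 single windows called were all higher in ES cells, whereas edgeR called 9 others, all higher in MEFs. The count was 0 with DESeq2, 0 with no filter on low values, 0 without the trend and 0 with the replicate block. Leaving out 1 library gave 0 to 390, again highest without ES replicate 1 (353 with MEFs on the higher side, 37 with ES cells). The 3 called without ES replicate 2, and the 3 with the ES libraries summed, were all higher in MEFs. With both ES libraries summed, the side ratios passed the test at -0.71 (under 100 kb), -0.96 (100 to 200 kb) and 0.92 (200 to 400 kb) but not beyond 400 kb (-0.15, adjusted p = 0.455). The spread then comes from the MEF pair alone, with the lone ES value assumed to vary alike. Leaving out 1 library gave ranges of -0.72 to -0.53, -1.01 to 0.030 and 0.20 to 0.97, and the second reversed without ES replicate 1 (0.030). The bin from 400 to 450 kb reversed from -0.68 to 0.19 without ES replicate 2 and to 0.13 with the ES libraries summed, and was -1.56 without ES replicate 1. The median distance differed by -95.9 kb and reversed to 3.13 kb among windows with counts in all 4 libraries.

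ES and MEF replicates share a number in their titles, and deviations of replicate 1 correlated at 0.14 between ES cells and MEFs over 43 bins. Because ES replicate 2 is shallow, this low value cannot tell whether libraries of the same number were paired. With the replicate block, the class beyond 400 kb stayed called (adjusted p = 0.00443) and the bins called stayed at 0. Depth limits the distal bins, where ES replicate 2 had 0 to 7 counts each.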
